A study of Mus musculus with 18 samples.

Results

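The ATF and C/EBP stress transcription factors described here are 8 genes of the basic leucine zipper family: Atf3, Atf4, Atf5, Atf6, Cebpb, Cebpd, Cebpg and Jdp2. They were taken by name, and each was found in at least 1 of the 3 tables analysed, out of 10110 genes found in any of them. Polyadenylated RNA was sequenced from 2 immortalized mouse embryonic fibroblast lines, one wild type (WT) and one labelled eIF2aS51A (S51A), in which serine 51 of the translation factor eIF2α is an alanine. Both lines were untreated (0 min) or given 500 µM hydrogen peroxide (H2O2) for 15 or 120 min, with 3 samples labelled in each of the 6 groups, although the series design text speaks of duplicates.

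Each table holds the genes that the authors called different between S51A and WT at 1 time, with a q-value of at most 0.05 and 1 FPKM value per line (a read density scaled to transcript length and library size). No value per sample was used here, so no spread can be given and neighbours in an order of levels cannot be told apart beyond it. The labels do not say that samples of a group were separate cultures, so the q-values may measure technical spread alone. Absence from a table does not show equal levels. Genotype cannot be told apart from line, since each is represented by 1 line, and in bulk RNA fewer cells with a transcript and less RNA per cell cannot be told apart. Of 10 fibroblast markers, 8 were listed at 0 min, 3 of them lower in S51A (such as Dcn, at 54.2 (WT) and 8.88 (S51A) FPKM) and 5 higher (such as Col1a2, at 155 (WT) and 1097 (S51A) FPKM). Of 14 epithelial, immune and endothelial markers, Krt19 and Cd68 were listed. The keratin gene Krt19 was higher in S51A by 1.35-fold, 1.95-fold and 2.59-fold at 0, 15 and 120 min, reaching 8.40 (WT) and 21.7 (S51A) FPKM, and Cd68 was lower at 0 min, at 1.97 (WT) and 1.11 (S51A) FPKM. The part of these markers in the results was not tested.

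Basic leucine zipper factors bind DNA as dimers. When stress kinases phosphorylate eIF2α at serine 51, general translation initiation slows while the Atf4 message, through its upstream open reading frames, is translated more. ATF4 protein then switches on genes for amino acid supply and stress effectors from CARE sites (C/EBP-ATF response elements), often with C/EBPγ as its partner. ATF5 is translated in a like way, and ATF3 and C/EBPβ are among the factors that ATF4 induces. ATF6 is a membrane protein of the endoplasmic reticulum that is cut to release an active factor, C/EBPδ belongs to the acute phase response, and JDP2 is a repressor that pairs with Jun proteins.

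The CARE letters were searched in promoters from RefSeq (GRCm38.p6, 250 bases before to 50 after each gene start) as TGATGNAA on both strands, so that the members could be set beside their targets. Of 32851 promoters, 3.97% held a match. Promoters were found for 6 of the 8 factors, all but Cebpd and Atf6. Of their 9 promoters, 2 held a match, those of Atf3 and Jdp2. Of 48 genes listed here as ATF4 targets, 37 had promoters, and 15 of their 44 promoters (34.1%) held a match. The windows below run 5′ to 3′ on the strand where the match reads TGATGNAA, with the match in capitals. They are shown for both factors and for some of the targets described further on. Fgf21 and Yars, also described there, each held a TGATGCAA match that is not shown.
Atf3, chr1:191183425-191183454, plus strand: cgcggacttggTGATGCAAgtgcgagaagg
Jdp2, chr12:85599372-85599401, plus strand: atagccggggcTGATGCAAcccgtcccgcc
Chac1, chr2:119351038-119351067, minus strand: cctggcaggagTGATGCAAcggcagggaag
Slc7a11, chr3:50443661-50443690, minus strand: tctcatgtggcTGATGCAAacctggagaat
Slc7a11, chr3:50443642-50443671, plus strand: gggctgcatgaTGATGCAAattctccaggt
Nupr1, chr7:126625562-126625591, plus strand: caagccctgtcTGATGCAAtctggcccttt
Slc1a4, chr11:20332699-20332728, plus strand: caggctggagaTGATGCAAcgcaggaggca
Iars, chr13:49682126-49682155, minus strand: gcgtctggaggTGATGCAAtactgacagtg
Trib3, chr2:152344028-152344057, plus strand: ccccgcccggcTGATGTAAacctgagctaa
Asns, chr6:7693214-7693243, minus strand: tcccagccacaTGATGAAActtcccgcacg

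The shared TGATG start of these windows was fixed by the search. Of the 19 matches in factors and targets together 14 read TGATGCAA, a share that was not counted over all promoters. The Atf3 match began 110 bases from a RefSeq start and the Jdp2 match 33 bases from 1 of its 3 RefSeq starts. That Atf3 start lies inside the longer GENCODE span of the gene given further on. The Slc7a11 promoter held a pair of matches on opposite strands, and the Trib3 and Iars matches lay just past the start. The promoters found for the factors held no match to the CRE letters TGACGTCA (1.79% of all promoters), the C/EBP letters TTGCGCAA (0.183%) or the AP-1 letters TGANTCA (7.81%). Cebpd and Atf6 had no promoter to search. A match of letters is a description and shows no binding.

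Atf4 was the most abundant of the listed factors at 0 and 15 min in both lines, on the FPKM scale, which is per length. The gene lies on chromosome 15 from 80255184 to 80257541 (mm10). It was at 313 (WT) and 246 (S51A) FPKM before treatment, and at 311 (WT) and 267 (S51A) FPKM after 15 min. Both differences were small, 1.27-fold and 1.17-fold, with q-values of 0.00526 and 0.0213 in the authors' deposited table. At 120 min Atf4 was not listed. Among the 313 genes listed at 120 min within 2-fold of Atf4's mean level, the smallest difference between the lines was 1.30-fold, so a difference of the size seen at 0 min would have been smaller than any listed for genes at that level.

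Atf5, whose factor supports mitochondrial stress responses, was also lower in S51A (chromosome 7, 44812256 to 44816658). It was at 40.2 (WT) and 24.9 (S51A) FPKM at 0 min, a 1.61-fold difference, and at 36.0 (WT) and 26.7 (S51A) FPKM at 15 min, a 1.35-fold difference. It was not listed at 120 min. Its reads may be uncertain, because Nup62 overlaps 571 bases of it on the opposite strand and was itself lower in S51A, at 69.1 (WT) and 37.5 (S51A) FPKM at 0 min. Il4i1 also overlaps 272 bases of Atf5 on the opposite strand, and the deposited locus of 36.8 kb runs well past the gene. No source used here says whether the counting used strand.

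Cebpb, the second most abundant factor at 0 min, was lower in S51A at that time and was listed at no other. The gene has 1 exon (chromosome 2, 167688915 to 167690418) and was at 138 (WT) and 88.6 (S51A) FPKM, a 1.56-fold difference. Tmem189 overlaps 908 bases of Cebpb on the opposite strand and was listed by its own symbol at no time, so the reads of Cebpb may be uncertain too. At 15 and 120 min genes within 2-fold of its level were listed with differences down to 1.14-fold and 1.29-fold.

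Cebpd separated the lines the most of the 8 factors. This gene of 1 exon (chromosome 16, 15887286 to 15891031) was at 16.1, 14.6 and 11.1 FPKM in WT at 0, 15 and 120 min. In S51A it was at 46.2, 52.3 and 190 FPKM. S51A was thus higher by 2.87-fold, 3.58-fold and 17.1-fold, with q-values of 0.000118, 0.000102 and 0.000198 in the authors' deposited table, each the lowest q-value that table holds. That lowest value was shared by 4905 of 7555, 5803 of 8308 and 3041 of 6119 entries, so it does not set Cebpd apart. At 120 min its ratio ranked 87 from the top of the 3029 genes higher in S51A (genes at 0 in a line left out). Spidr overlaps 1808 bases of Cebpd on the opposite strand, and the deposited locus of 260 kb takes in both. Spidr was at 11.1 (WT) and 17.3 (S51A) FPKM at 0 min, and the 120 min table did not hold it.

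Atf3, a factor induced by many stresses, was the least abundant of the listed factors before treatment and was higher in S51A at every time (chromosome 1, 191170296 to 191218039). It was at 1.55, 2.13 and 15.3 FPKM in WT at 0, 15 and 120 min, and at 3.18, 3.73 and 44.6 FPKM in S51A. The differences between lines were 2.06-fold, 1.75-fold and 2.91-fold. Both lines had more Atf3 RNA at 120 min than at 0 min, 9.92 times as much in WT and 14.0 times as much in S51A. No test of change over time could be made from these tables.

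Cebpg, the dimer partner of ATF4, was the one factor whose direction differed between times (chromosome 7, 35046422 to 35056573). It was at 12.8, 12.8 and 22.9 FPKM in WT against 15.7, 16.1 and 12.5 FPKM in S51A. S51A was therefore 1.22-fold and 1.26-fold higher at 0 and 15 min (q-values of 0.0329 and 0.00136 in the authors' deposited table), but 1.84-fold lower at 120 min (q-value of 0.000198). The level in WT at 120 min was 1.79 times that at 0 min, and in S51A 0.796 times. The FPKM ratio of Cebpd to Cebpg was 1.26, 1.14 and 0.483 in WT and 2.95, 3.25 and 15.2 in S51A at the 3 times.

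Atf6 and Jdp2 were lower in S51A wherever they were listed. Atf6 (chromosome 1, 170704674 to 170867771) was at 10.9 (WT) and 7.94 (S51A) FPKM at 15 min, a 1.38-fold difference, and at 11.6 (WT) and 6.59 (S51A) FPKM at 120 min, a 1.75-fold difference. Jdp2 (chromosome 12, 85599027 to 85639878) was listed at 120 min, at 22.5 (WT) and 13.3 (S51A) FPKM, a 1.69-fold difference.

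In all, 3 factors were lower and 3 higher in S51A at 0 min, 3 lower and 3 higher at 15 min, and 3 lower and 2 higher at 120 min. Among all genes of the tables, 50.4% were lower and 49.6% higher at 0 min, 50.1% and 49.9% at 15 min, and 49.1% and 50.9% at 120 min, so these counts lay near the background. With at least a 2-fold difference, 2, 1 and 2 factors were higher (Atf3 and Cebpd at 0 and 120 min, Cebpd at 15 min) and none lower. The share of all listed genes at least 2-fold higher was 22.1%, 20.2% and 26.5%, and at least 2-fold lower 15.0%, 12.3% and 20.9%. The order of levels at 120 min ran Cebpg, Jdp2, Atf3, Atf6, Cebpd in WT and Cebpd, Atf3, Jdp2, Cebpg, Atf6 in S51A. Cebpd was thus lowest of the 5 listed factors in WT and highest in S51A.

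**Figure D1:**
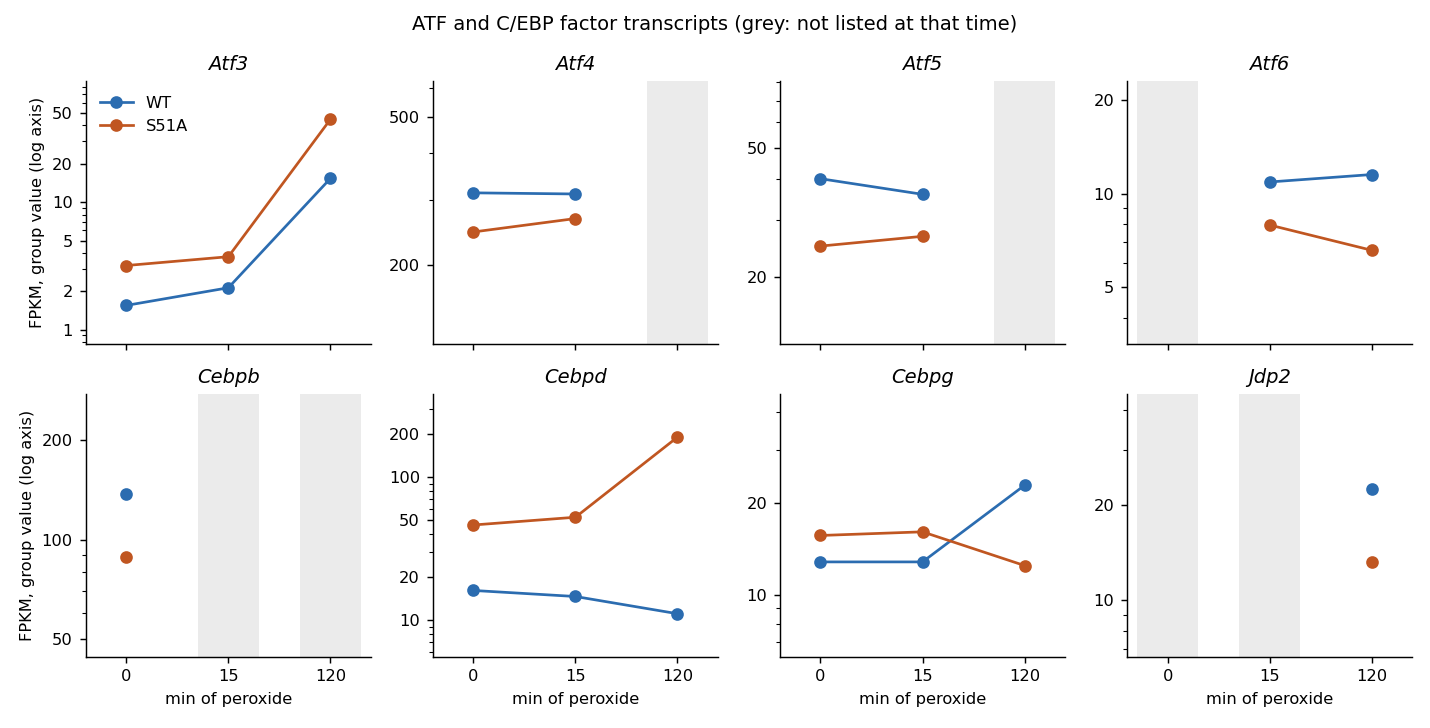
FPKM of each factor (log axis) against time in peroxide (categories, not to scale), with 1 point per line and time, the authors' group value, and no error bar because no values per sample were used. Cebpd in S51A reaches 190 FPKM at 120 min against 11.1 in WT, the Cebpg lines cross between 15 and 120 min, and grey bands mark times at which a factor was not listed.

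Transcript length went with the direction of a difference across all genes at 0 and 120 min, and is given here beside the factors. Genes were divided into 4 length classes of like size by their longest coding transcript in GENCODE M21. At 0 min 70.2% of listed genes in the shortest class (up to 2071 bases) were lower in S51A against 32.4% in the longest (4767 bases or more). At 15 min the classes were closer together, at 48.8%, 45.3%, 50.4% and 56.3% from the shortest to the longest. At 120 min the order was opposite to that at 0 min, 20.2% in the shortest and 77.5% in the longest. Atf4, Atf5 and Cebpb, lower at 0 min, all lie in the shortest class, and Atf6, lower at 120 min, lies in the longest. Against these shares, Atf3 lies in the shortest class and was higher at 0 min, and Jdp2 lies there and was lower at 120 min.

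From 0 to 120 min the log2 ratio of S51A to WT moved by a median of 0.72 in the shortest class and -0.73 in the longest, and across 4102 genes this move had a Pearson correlation of -0.65 with log2 length (a description, since genes share libraries). Atf3, at 1984 bases, moved by 0.51, within the middle of its class. Cebpd and Cebpg lie in the third class, where the median move was -0.19 over 1025 genes. Cebpd moved by 2.58, the fifth highest there, and Cebpg by -1.18, which ranked 58 from the lowest. The part of transcript length in these differences was not tested.

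**Figure D2:**
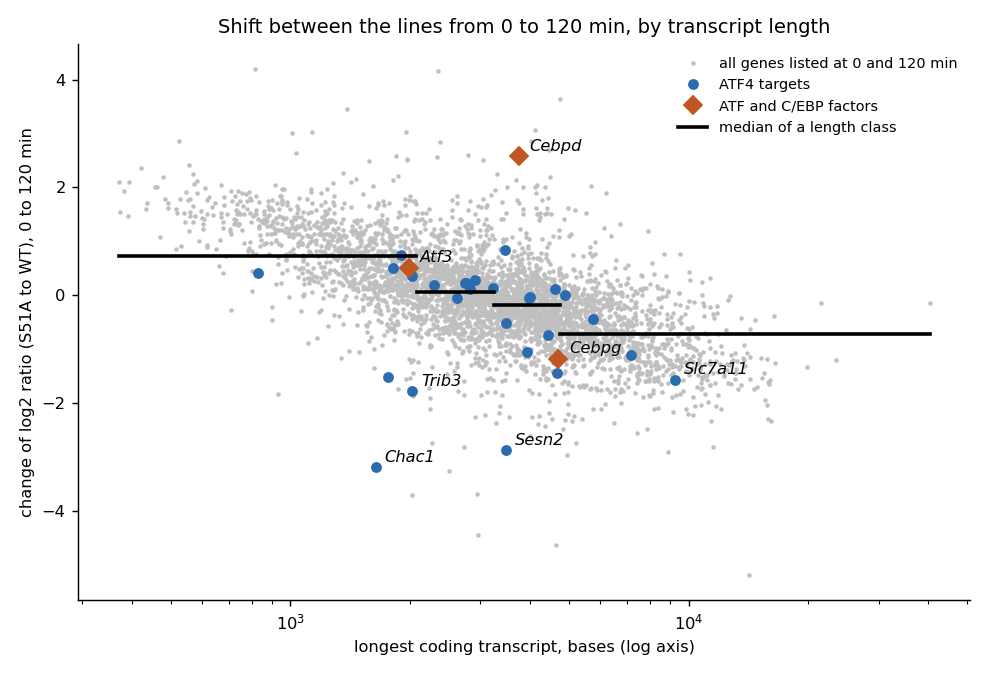
Change of the log2 ratio of S51A to WT from 0 to 120 min against longest coding transcript (bases, log axis), for genes listed at both times. Grey points are all genes, circles ATF4 targets, diamonds factors and black lines the median of each length class, from 0.72 in the shortest to -0.73 in the longest. Cebpd (2.58) lies far above its class's line, and Chac1 (-3.19) and Sesn2 (-2.88) far below theirs.

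The next comparison set the level of Atf4 RNA beside the RNA of ATF4 targets in the same cells. Of the 48 targets, 36 were listed at 0 min, 26 lower and 10 higher in S51A. At 15 min 27 were lower and 10 higher of 37, and at 120 min 27 lower and 5 higher of 32. The share lower was 72.2%, 73.0% and 84.4%, against 50.4%, 50.1% and 49.1% of all listed genes. Median log2 ratios were -0.64, -0.70 and -0.81, against -0.28, -0.21 and 0.40 over all listed genes. These targets were chosen with earlier results of these data known, so the counts are a description.

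Atf4's own difference was among the smallest listed, so nearly any gene called lower differed by more. At 0 min, with Atf4 at a log2 ratio of -0.34 in the authors' deposited table, 24 of the 26 lower targets (92.3%) had a larger difference, as did 91.5% of all 3790 lower genes, and the range over all targets ran from -2.37 for Vegfa to 2.37 for Cbs. At 15 min, with Atf4 at -0.22, it was 26 of 27 lower targets (96.3%) and 97.3% of all 4146 lower genes, with the targets in a range from -2.89 for Slc7a11 to 2.41 for Cbs. These counts set the lower targets apart from Atf4 no more than other lower genes. At least 2-fold lower were 10 of 36, 8 of 37 and 11 of 32 listed targets at 0, 15 and 120 min, against 15.0%, 12.3% and 20.9% of all listed genes. RNA levels give no measure of ATF4 protein, and whether Atf4 RNA sets the levels of these targets was not tested.

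**Figure D3:**
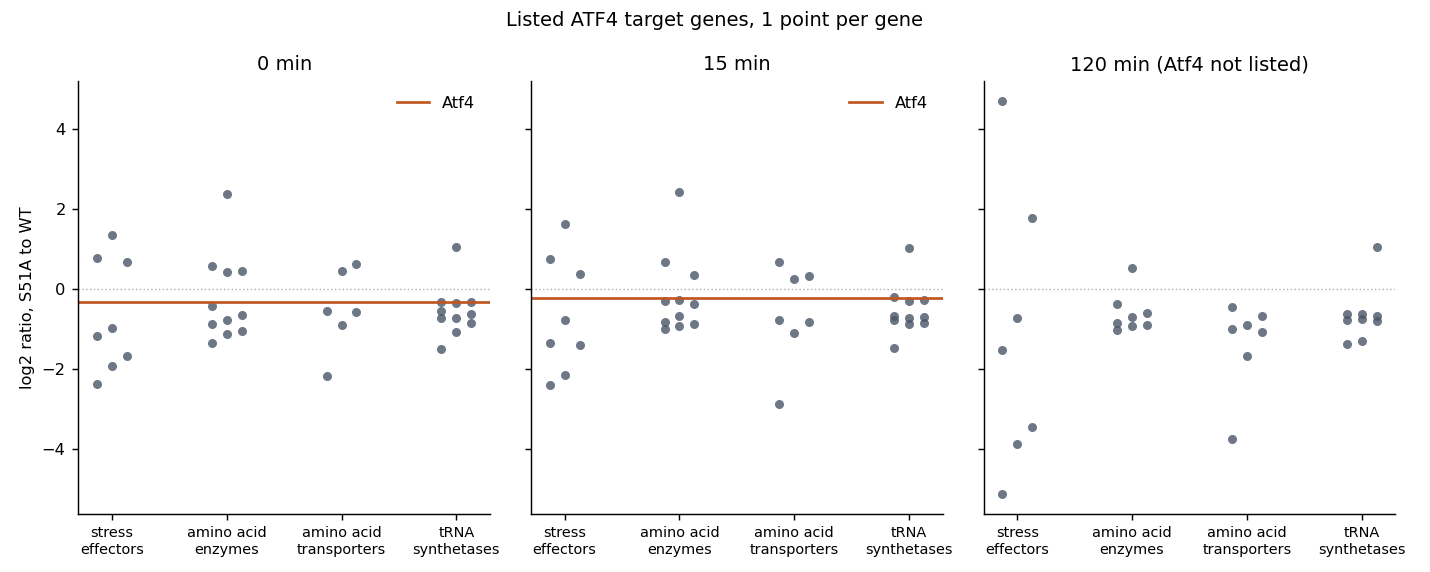
Log2 ratio of S51A to WT for listed ATF4 targets, 1 point per gene, by role and time, with genes at 0 in a line left out. The line marks Atf4 itself, at -0.34 and -0.22. Of the lower targets 24 of 26 and 26 of 27 lie under it, as do 91.5% and 97.3% of all listed lower genes. At 120 min, where Atf4 was not listed, the stress effectors run from -5.13 to 4.70.

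Stress effectors ran from -2.37 to 1.35 on the log2 scale at 0 min and from -5.13 to 4.70 at 120 min. Chac1, which breaks down glutathione, was at 16.8, 19.4 and 17.6 FPKM in WT against 4.41, 3.68 and 0.503 FPKM in S51A at the 3 times, so that the difference was 35.0-fold at 120 min. Trib3, a pseudokinase that feeds back on ATF4, was at 9.65, 9.06 and 36.8 FPKM in WT against 3.03, 3.41 and 3.36 FPKM in S51A. Sesn2, an inhibitor of the growth kinase mTORC1, was at 8.69, 9.51 and 40.5 FPKM in WT against 4.38, 3.73 and 2.77 FPKM in S51A. The 120 min differences were 10.9-fold for Trib3 and 14.6-fold for Sesn2. In Trib3 and Sesn2 it was the WT level that was high at 120 min, while for Chac1 it was the S51A level that was low.

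Not every effector was lower in S51A. Nupr1, a chromatin-associated stress protein whose promoter held a CARE match, was at 20.4, 18.9 and 35.5 FPKM in WT against 52.0, 58.5 and 120 FPKM in S51A, higher by 2.55-fold, 3.10-fold and 3.39-fold. Vegfa, an angiogenic growth factor, was 5.13-fold, 4.44-fold and 2.91-fold lower. Ddit4, another inhibitor of mTORC1, was 1.72-fold and 1.67-fold higher at 0 and 15 min and 1.66-fold lower at 120 min. Gdf15 and Fgf21 were listed at 120 min alone, and both were higher in S51A. Gdf15 was at 0.274 (WT) and 7.06 (S51A) FPKM, a 25.8-fold difference (q-value of 0.0161 in the authors' deposited table). Fgf21 was at 0 (WT) and 0.859 (S51A) FPKM. Ddit3 and Ppp1r15a, a factor and a phosphatase subunit of the same pathway, were listed at no time.

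Amino acid transporters listed at 120 min were all lower in S51A, 7 of 7, beside 4 of 6 at 0 min and 4 of 7 at 15 min, with 49.1%, 50.4% and 50.1% of all listed genes lower at these times. Slc7a11, the cystine transporter with a pair of CARE matches, was at 0.966, 1.17 and 3.14 FPKM in WT against 0.212, 0.158 and 0.232 FPKM in S51A. Slc7a1, which carries arginine and lysine, was 1.48-fold, 2.14-fold and 3.23-fold lower, and the glycine transporter gene Slc6a9 1.47-fold, 1.72-fold and 2.10-fold lower. Slc38a2, a neutral amino acid transporter, was at 127, 139 and 154 FPKM in WT against 172, 165 and 76.1 FPKM in S51A. Like Cebpg, it was higher in S51A at 0 and 15 min and lower at 120 min, as was Slc1a4, at 7.94, 8.0 and 11.6 FPKM in WT against 12.0, 12.7 and 8.46 FPKM in S51A. Slc3a2, the shared heavy subunit of several transporters, was higher at 15 min, at 67.2 (WT) and 84.4 (S51A) FPKM, and lower at 120 min, at 146 (WT) and 77.7 (S51A) FPKM.

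Enzymes of amino acid and one-carbon metabolism were mostly lower in S51A. At 0, 15 and 120 min 7 of 11, 8 of 11 and 7 of 8 listed genes were lower, against 50.4%, 50.1% and 49.1% of all listed genes. Asns, asparagine synthetase, was at 111, 99.7 and 118 FPKM in WT against 53.1, 54.2 and 72.0 FPKM in S51A. Phgdh, the entry enzyme of serine synthesis, was 2.20-fold, 1.79-fold and 1.32-fold lower, and Cth, which makes cysteine, 2.59-fold, 2.01-fold and 1.81-fold lower. For aminoacyl-tRNA synthetases with the tRNA export gene Xpot, 10 of 11, 10 of 11 and 8 of 9 were lower, against the same shares of all listed genes. Cars was 2.81-fold, 2.77-fold and 2.59-fold lower, Yars 2.14-fold, 1.84-fold and 1.75-fold lower and Iars 1.47-fold, 1.83-fold and 2.48-fold lower, while Eprs was 2.07-fold higher at both 0 and 120 min.

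The ratio of S51A to WT was then followed from 0 to 120 min within each role. Of targets listed at both times, it was smaller at 120 min for 14 of 27, beside 2257 of 4272 genes in all. By role it was smaller for 4 of 6 effectors (median change -1.65) and 5 of 6 transporters (-1.09), but for 1 of 6 enzymes (0.27) and 4 of 9 synthetases (0.00). The median change was -0.04 over the 27 targets and -0.05 over the 4272 genes. Set beside genes of like length, Chac1 (1637 bases, -3.19) ranked 2 from the lowest of 1026 genes in its class, Trib3 (2026 bases, -1.78) ranked 5 and Ddit4 (1755 bases, -1.52) ranked 9, where the class's median was 0.72. Sesn2 (3475 bases, -2.88) ranked 2 from the lowest of 1025. Slc7a11 and Slc7a1, at 9223 and 7179 bases, lay in the longest class and moved by -1.57 and -1.12, against its median of -0.73. They ranked 108 and 286 from the lowest of 1026. Vegfa (3451 bases, 0.83) moved the other way and ranked 56 from the highest of 1025. Asns, Cth and Phgdh, in the shortest class, ranked 314, 408 and 530 from the lowest of 1026. By class from the shortest, median moves of the targets were 0.35, 0.18, -0.51 and -0.78 (7, 7, 9 and 4 targets). Over all genes of each class they were 0.72, 0.05, -0.19 and -0.73. The ranks of single targets above therefore do not describe the targets as a set.

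The direction of the listed targets was also set beside their CARE matches. At 120 min 9 of 12 targets with a match and 11 of 13 without one were lower in S51A, at 15 min 9 of 13 and 11 of 17, and at 0 min 9 of 14 and 10 of 15. Over all genes with a promoter, 50.7% of the 138 listed with a match and 49.7% of the 4574 without one were lower at 120 min. At 0 min these shares were 44.9% and 51%, and at 15 min 45.9% and 50.6%. The differences between these shares were not tested.

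Upstream of ATF4, the gene Eif2s1 for eIF2α itself was 2.03-fold, 1.99-fold and 1.69-fold lower in S51A. The eIF2α kinase genes Eif2ak3 (PERK) and Eif2ak2 (PKR) were higher, Eif2ak3 at 2.81, 3.12 and 2.46 FPKM in WT against 12.2, 11.2 and 8.75 FPKM in S51A. The other eIF2α kinase genes were lower where listed, Eif2ak1 by 1.27-fold at 15 min and Eif2ak4 by 1.75-fold at 120 min. Egln3, a prolyl hydroxylase, was 1.93-fold, 2.06-fold and 1.45-fold lower. Of the 13 genes in this control list, 3 were lower and 4 higher at 0 min, 7 lower and 3 higher at 15 min, and 4 lower and 2 higher at 120 min, beside 50.4%, 50.1% and 49.1% lower among all listed genes.

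Targets of ATF6 were mostly higher in S51A while Atf6 RNA, where listed, was lower. Of 18 targets in the endoplasmic reticulum, 12 of 14 listed were higher at 0 min, 12 of 14 at 15 min and 8 of 10 at 120 min, against 49.6%, 49.9% and 50.9% of all listed genes. The chaperone gene Hsp90b1 was at 564, 572 and 626 FPKM in WT against 1067, 1090 and 1269 FPKM in S51A. Xbp1, a factor gene that ATF6 induces, was 2.71-fold, 3.20-fold and 1.89-fold higher, and the disulfide isomerase gene Pdia6 1.44-fold, 1.69-fold and 2.10-fold higher. Herpud1, a degradation factor that ATF4 also induces and whose promoter held a CARE match, was 1.38-fold and 1.55-fold higher and then 2.13-fold lower at 120 min, a move of -1.55 that ranked 7 from the lowest of 1026 genes in the shortest length class. Mbtps1, the protease that makes the first cut in ATF6, was at 29.9, 29.0 and 26.4 FPKM in WT against 71.0, 71.0 and 51.3 FPKM in S51A.

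Mitochondrial chaperones and proteases of the response linked to ATF5 were lower in S51A for 9 of 9 listed genes at 0 min, 7 of 7 at 15 min and 3 of 4 at 120 min, against 50.4%, 50.1% and 49.1% of all listed genes. The chaperonin gene Hspd1 was 2.38-fold, 2.38-fold and 1.67-fold lower and Hspa9 2.20-fold, 2.28-fold and 2.00-fold lower. Hspe1, the small partner of Hspd1, was 2.35-fold and 1.66-fold lower and then 1.55-fold higher at 120 min. Atf5 was lower at 0 and 15 min and not listed at 120 min.

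Acute phase and inflammatory genes known as targets of C/EBPβ and C/EBPδ, many of which NF-κB also drives, were higher in S51A for 8 of 13, 10 of 14 and 9 of 10 listed members, against 49.6%, 49.9% and 50.9% of all listed genes. Their median log2 ratio was 0.92, 0.96 and 3.64, against -0.28, -0.21 and 0.40 over all listed genes. The latter medians lie at the edge of the gap round 0 left by listing called genes alone. At 120 min 8 of the 10 were at least 2-fold higher, against 26.5% of all listed genes. Il6, a cytokine gene, was at 1.49, 2.11 and 1.79 FPKM in WT against 2.64, 3.46 and 56.5 FPKM in S51A. Lcn2, an iron-binding acute phase protein, was 8.0-fold, 14.3-fold and 17.8-fold higher, and the chemokine gene Cxcl1 7.16-fold, 6.36-fold and 23.1-fold higher. Cxcl5, another chemokine gene, was at 0.490, 0.293 and 0.0981 FPKM in WT against 9.38, 10.3 and 10.5 FPKM in S51A, with a q-value of 0.0484 at 120 min in the authors' deposited table. Il1rn, the interleukin 1 receptor antagonist, was 42.5-fold, 38.0-fold and 15.5-fold higher, whereas the prostaglandin synthase gene Ptgs2 was 16.3-fold, 20.4-fold and 2.50-fold lower. Among genes of like length Il6 had the highest move of the ratio from 0 to 120 min, 4.15 on the log2 scale in a class of 1025 with a median of 0.05, and the chemokine gene Ccl2 the highest, 4.19, in the shortest class. Il6 thus had a high level in 1 of the 6 groups, S51A at 120 min, the group where Cebpd was also highest. Of the 9 C/EBP targets listed at 0 and 120 min, the ratio rose for 7 and fell for 2. The median change was 1.69, against -0.05 over 4272 genes. Those that fell were Il1rn (-1.46, ranked 19 from the lowest of 1025) and C3 (-1.31). Lcn2, Cxcl1, Cxcl5, Ccl2 and Ptx3 lie in the shortest length class, where 20.2% of listed genes were lower at 120 min. The median move in that class was 0.72, nearer to theirs than the -0.05 over all genes. Cxcl5 (2.48) and Cxcl1 (1.69) ranked 11 and 88 from the highest of 1026 there. Lcn2 (1.15) and Ptx3 (1.14) ranked 291 and 296.

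Genes of the adipocyte cascade downstream of C/EBPβ and C/EBPδ had no common direction, with 3 lower and 2 higher at 0 min, 1 and 3 at 15 min and 2 and 2 at 120 min. Of all listed genes, 50.4%, 50.1% and 49.1% were lower at these times. Pparg, the master factor of adipocytes, was at 0.310, 0.219 and 0.221 FPKM in WT against 1.49, 1.60 and 0.812 FPKM in S51A. Klf5 was 3.23-fold, 4.32-fold and 2.68-fold lower, and Fabp4, a fatty acid carrier, was 1.83-fold lower at 0 min and then 2.43-fold and 1.69-fold higher.

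**Figure D4:**
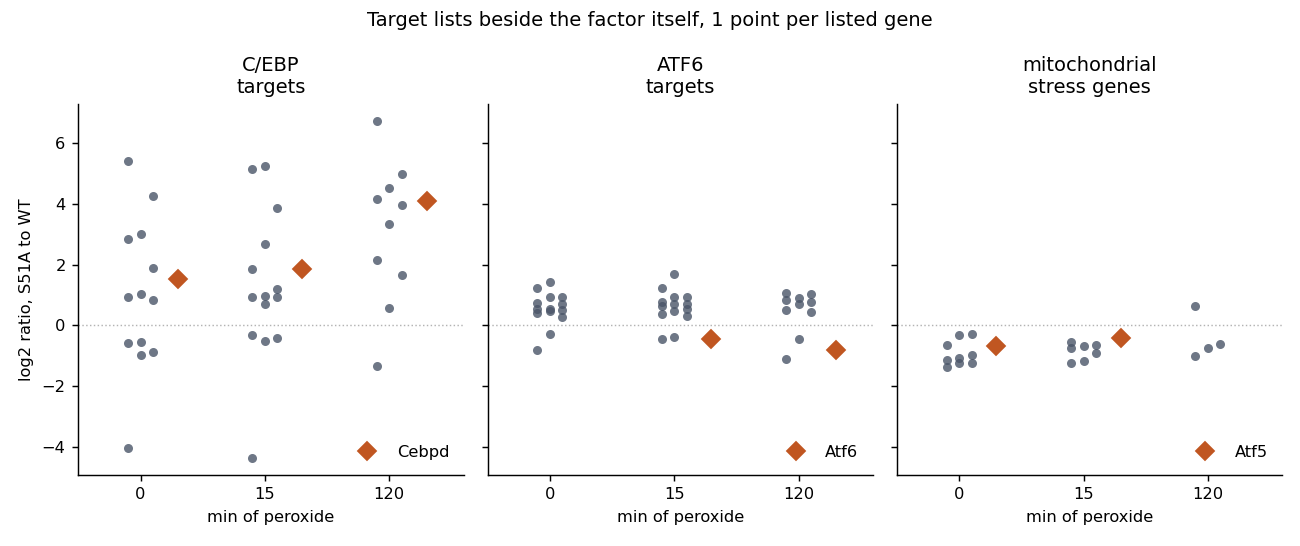
Log2 ratio of S51A to WT for listed targets of C/EBP factors, of ATF6 and of the mitochondrial response linked to ATF5, by time, 1 point per gene, with Cebpd, Atf6 or Atf5 as a diamond. Cebpd and most of the C/EBP targets lie above 0. Cebpb, which shares that target list and was lower in S51A at 0 min, is not drawn. Atf6 lies below 0 while 8 of 10 targets lie above 0 at 120 min, and Atf5 lies below 0 with its list at 0 and 15 min.

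The genes most like Atf3, Cebpd and Cebpg, the 3 factors listed at all times, were found among 3826 genes by the root mean square distance between log2(FPKM + 1) values over the 6 groups, each gene centred on its own mean. For Cebpd they were Tnfaip3, a feedback inhibitor of NF-κB (distance 0.26), Ttc32 (0.29) and Nenf (0.39). Tnfaip3 was at 2.43, 2.87 and 2.23 FPKM in WT against 15.8, 14.3 and 41.9 FPKM in S51A. For Cebpg they were Nbr1 (0.13), Fam214a (0.14) and Zfp507 (0.16), with Nbr1, an autophagy receptor gene, at 24.3, 26.7 and 36.3 FPKM in WT against 32.7, 32.2 and 23.9 FPKM in S51A. For Atf3 they were less close, LOC100504703 (0.69), Gm9958 (0.71) and the NF-κB inhibitor gene Nfkbia (0.75), the last at 39.1, 37.0 and 62.7 FPKM in WT against 61.0, 72.5 and 309 FPKM in S51A.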

How the data were processed

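Per the submitters' processing notes, STAR, Cufflinks, Cuffdiff and mm10 were used, without versions or roles. The annotation behind the counts is not given in these sources. Per the labels, libraries were strand-specific, polyadenylated and read from 1 end for 75 bases. Per the file headers, the authors deposited a log2 FPKM value per line, a log2 ratio (S51A minus WT) and a q-value for each gene they marked significant, so replicates were already combined and depth is unknown. A log2 FPKM of -10 stands for 0. The ratio of a gene at 0 in a line enters no median, range or rank given here, but its direction is counted. Such genes also count as at least 2-fold different in the 2-fold counts and shares. One derived column per table was not used.

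Symbols that were repeated, joined or turned into dates were left out, leaving 7549, 8289 and 6105 genes at 0, 15 and 120 min. Folds are ratios of the authors' group values (Python 3.11.15, pandas 2.3.3). No test across samples was made. The counting and distance steps were tested on simulated data. Folds over time in the text are plain FPKM ratios. Changes over time in the checks of settings used log2(FPKM + 1), centred on the median of genes listed at both times. From 0 to 120 min these were 2.78 (WT) and 3.63 (S51A) for Atf3, -0.40 and 2.19 for Cebpd, and 0.89 and -0.13 for Cebpg. The tables may have been normalized separately. Gene positions and lengths come from GENCODE M21 on GRCm38, the build that mm10 names.

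Members and lists were chosen with earlier results of these data known. Named genes are all members, up to 6 per list that were listed at all times and at least 2-fold different at one, ATF4 targets whose direction differed between times, and the 3 nearest genes of each member. Cbs, Gdf15, Fgf21, Ccl2, C3, Ptx3, Cd68, Eif2ak1, Eif2ak4, Nup62, Spidr, Ddit3 and Ppp1r15a were named after their values were seen. So were switching genes of other lists. Tmem189 and Il4i1 were named for their overlap with a factor. Hspa5, Xbp1, Cebpa, Ddit3 and Ppp1r15a each stand in 2 lists. Alternatives were a q-value of at most 0.01, at least 2-fold, at least 5 FPKM in either line, a pseudocount of 0.1, no centring and a distance over log2 ratios.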

Additional observations from a re-analysis of the deposited data

Results flagged for a closer look

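The difference between the lines pointed in opposite directions at different times for 1 factor and 4 ATF4 targets, each listed by the authors at those times. As log2 ratios of S51A to WT in the authors' deposited table, Cebpg was at 0.29 and 0.33 at 0 and 15 min and at -0.89 at 120 min. Ddit4 was at 0.78 and 0.74 and then at -0.74. Slc38a2 was at 0.44 and 0.25 and then at -1.01, and Slc1a4 at 0.61 and 0.67 and then at -0.45. Slc3a2 was at 0.33 at 15 min and -0.91 at 120 min. Whether the difference itself differed between times was not tested, because no values per sample were used. In the same interval genes of the third length class, which holds Cebpg, Slc38a2 and Slc1a4, moved by a median of -0.19, and those of the shortest, which holds Ddit4, by 0.72.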

How the results depend on the processing

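No paired analysis was possible because the tables hold 1 value per group and no values per sample, and leaving out replicates could not be run for the same reason. With at least 2-fold, the counts of factors lower in S51A became 0, 0 and 0 at 0, 15 and 120 min, and 1 was higher at 15 min. ATF4 targets became 10, 8 and 11 lower, with 3 higher at both 0 and 15 min. Counts of targets lower by more than Atf4 likewise became 10 and 8 when at least 2-fold was asked. C/EBP targets became 1 lower at 0 and at 15 min and 6 higher at 15 min. ATF6 targets became 0, 0 and 1 lower and 2, 2 and 2 higher. With a q-value of at most 0.01, 1 factor, Atf6, was lower at 15 min, since Atf4 and Atf5 no longer passed. The other 11 counts under that q-value and all 12 under a minimum of 5 FPKM stayed within 1.5 times. These filters cannot change a direction. Of the 16 centred log2 changes of factors over time, none moved by over 1.5-fold with another pseudocount or without centring, and the sign of 1 differed without centring. The nearest genes depended on the measure: 1, 0 and 0 of 3 were shared for Atf3, Cebpd and Cebpg when log2 ratios were used. Depth and spread between samples are unknown.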

Other observations

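Other basic leucine zipper genes divided as evenly as the factors above: of 45, 13 were lower and 12 higher in S51A at 0 min, 13 and 14 at 15 min, and 9 and 10 at 120 min. These counts lay near the shares of all listed genes, 50.4%, 50.1% and 49.1% lower. The genes with the largest differences were of several branches. Creb3l1, a membrane-bound factor of secretory cells, was at 6.11, 6.59 and 4.96 FPKM in WT against 52.0, 48.5 and 38.3 FPKM in S51A. Hlf, a circadian output factor gene, was at 6.41, 7.62 and 4.41 FPKM in WT against 1.96, 1.68 and 0.779 FPKM in S51A. Bach2, a repressor gene, was at 0.398, 0.398 and 0.274 FPKM in WT against 1.80, 1.55 and 1.28 FPKM in S51A. Among the AP-1 genes Fosl1 was lower at each time, at 58.5 (WT) and 22.8 (S51A) FPKM at 120 min, and Fos and Junb were higher, Junb at 88.6 (WT) and 556 (S51A) FPKM at 120 min.

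Of these 45 genes, 5 were listed in opposite directions at different times, Atf7, Nfil3, Tef, Maff and Jun, named after their values were seen. Atf7 and Nfil3 were higher in S51A first and lower at 120 min, as Cebpg was. Tef, Maff and Jun were lower first and higher at 120 min, with Jun, the partner of JDP2, at 52.0 (WT) and 25.8 (S51A) FPKM at 0 min and at 54.6 (WT) and 97.7 (S51A) FPKM at 120 min. These switches were not tested.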
